A study of Mus musculus with 6 samples.

Results

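Cells carrying the genes of the neutrophil primary granule were examined in 3 cultures of mouse bone marrow-derived dendritic cells (DCs). A cell was counted as a granule-gene cell if it held at least 1 UMI of at least 3 of 5 genes, Elane, Prtn3, Ctsg, Mpo and Ms4a3. Barcodes counted as cells when 300 or more genes were detected, the UMI total was below 100000 and mitochondrial RNA took less than 10% of it. A UMI is a molecular tag that counts an RNA molecule once, read here from the 3′ end of the RNA. The rule found 385 granule-gene cells among 24051 kept cells of the 3 DC libraries, and 35083 cells were kept over all 6 libraries of the series. They numbered 203 of 7257 cells in the untreated culture, 180 of 8825 in the vitamin D3 (VD3) culture and 2 of 7969 in the Ndrg2-knockout (Ndrg2-KO) culture.

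All 3 cultures were grown from marrow of C57/BL6 wild-type mice with GM-CSF, and only cells in suspension were used. The untreated DCs received neither vitamin D3 nor nucleofection. The VD3 stimulated DCs were exposed to 1e-06 M of the hormone on day 7, for 24 h. The Ndrg2-KO DCs were nucleofected with Cas9 complexed to 3 guide RNAs against Ndrg2, and the untreated DCs were not nucleofected, so that nucleofection and loss of Ndrg2 cannot be told apart. Each condition was 1 library, so no test between conditions was possible; every interval given is a 95% interval for counting error only and does not hold the variation between cultures. The other 3 libraries came from wounds treated with hydrogels that held control DCs, Ndrg2-KO DCs or no cells.

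Granulocyte-monocyte progenitors are bone marrow cells that give rise to neutrophils and monocytes. During the promyelocyte step of neutrophil formation, cells make large amounts of the serine proteases elastase (Elane), proteinase 3 (Prtn3) and cathepsin G (Ctsg) and of myeloperoxidase (Mpo), and pack them into primary granules. Ms4a3 is a membrane protein whose gene is expressed at the stage of these progenitors. Marrow cultures with GM-CSF contain such cells because the cytokine drives granulocytes and macrophages as well as DCs.

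The 5 genes lie at 4 places on chromosomes 10, 11, 14 and 19. Prtn3 (ENSMUSG00000057729, chr10:79874476-79883174, plus strand) and Elane (ENSMUSG00000020125, chr10:79886247-79888215, plus strand) are neighbours, with 3072 bases between the end of the former and the start of the latter in GENCODE vM21 (GRCm38). Ctsg (ENSMUSG00000040314) spans chr14:56099881-56102574 and Ms4a3 (ENSMUSG00000024681) chr19:11629496-11640851, both on the minus strand. Mpo (ENSMUSG00000009350) spans chr11:87793581-87804413 on the plus strand.

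The 250 bases before the RefSeq start site of the 4 genes for granule proteins are shown because these genes define the cells described here. Sequences are those of RefSeq on GRCm38.p6, written 5′ to 3′ on the strand of the gene, and all 5 rule genes had an entry. Capitals mark AGGAAGT, the type of core that PU.1 binds, CAACGG, the type that MYB binds, and GCAAT, the core of a C/EBP site, each searched on both strands; the 3 motifs do not overlap one another in these windows and were chosen after the sequences had been seen. The windows are chr10:79886062-79886311 for Elane, chr10:79879417-79879666 for Prtn3, chr14:56102575-56102824 for Ctsg and chr11:87793534-87793783 for Mpo. In GENCODE the Elane and Mpo genes begin inside these windows, and the Prtn3 window lies inside the longer GENCODE gene.

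Elane: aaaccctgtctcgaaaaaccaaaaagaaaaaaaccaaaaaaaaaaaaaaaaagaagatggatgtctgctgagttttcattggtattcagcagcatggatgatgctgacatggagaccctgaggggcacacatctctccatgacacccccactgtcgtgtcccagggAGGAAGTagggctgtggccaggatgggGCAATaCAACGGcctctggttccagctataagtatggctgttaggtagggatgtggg
Prtn3: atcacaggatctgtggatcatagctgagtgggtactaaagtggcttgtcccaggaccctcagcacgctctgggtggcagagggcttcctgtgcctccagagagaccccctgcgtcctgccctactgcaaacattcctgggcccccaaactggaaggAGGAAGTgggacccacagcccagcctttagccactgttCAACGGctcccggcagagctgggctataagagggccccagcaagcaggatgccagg
Ctsg: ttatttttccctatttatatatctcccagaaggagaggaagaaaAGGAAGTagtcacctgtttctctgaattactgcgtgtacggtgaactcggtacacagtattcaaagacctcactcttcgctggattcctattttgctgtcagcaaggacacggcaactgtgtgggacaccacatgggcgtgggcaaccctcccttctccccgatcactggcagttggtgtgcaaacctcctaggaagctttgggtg
Mpo: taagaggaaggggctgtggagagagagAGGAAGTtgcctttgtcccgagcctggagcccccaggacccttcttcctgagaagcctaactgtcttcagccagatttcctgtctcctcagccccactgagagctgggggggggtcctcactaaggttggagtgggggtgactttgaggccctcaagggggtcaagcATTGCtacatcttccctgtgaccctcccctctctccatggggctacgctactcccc

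AGGAAGT stood 84 to 78 bases before the start in Elane, 94 to 88 in Prtn3, 206 to 200 in Ctsg and 223 to 217 in Mpo. It was present in 4 of the 5 rule genes and in 7.69% of the 32851 promoter windows of the same length. CAACGG stood 51 to 46 bases before the start of Elane and 56 to 51 before that of Prtn3, and was present in 4.05% of all windows. GCAAT was found in Elane and, on the opposite strand, in Mpo, against 23.1% of all windows. The Ms4a3 window held none of these letters. A match of letters is a description and no measure of binding.

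Kept cells held a median of 15804 UMIs in the untreated library, 12089 in the VD3 library and 16316 in the Ndrg2-KO library. Granule-gene cells were deeper than the other cells of their culture, with medians of 27210 against 15448 UMIs when untreated and 20664 against 11955 after VD3. Between 11 and 19 cell barcodes were shared by each pair of DC libraries, and none of these belonged to a granule-gene cell. Ndrg2 itself was at 4.62 CPM (UMIs per 1000000 UMIs of the cells pooled; 4.26 to 5) in the untreated library, 1.42 (1.21 to 1.65) in the VD3 library and 0.884 (0.737 to 1.05) in the Ndrg2-KO library, over all kept cells. Among granule-gene cells 69 UMIs of Ndrg2 were found in 43 of 203 untreated cells and 16 UMIs in 14 of 180 VD3 cells.

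**Figure D1:**
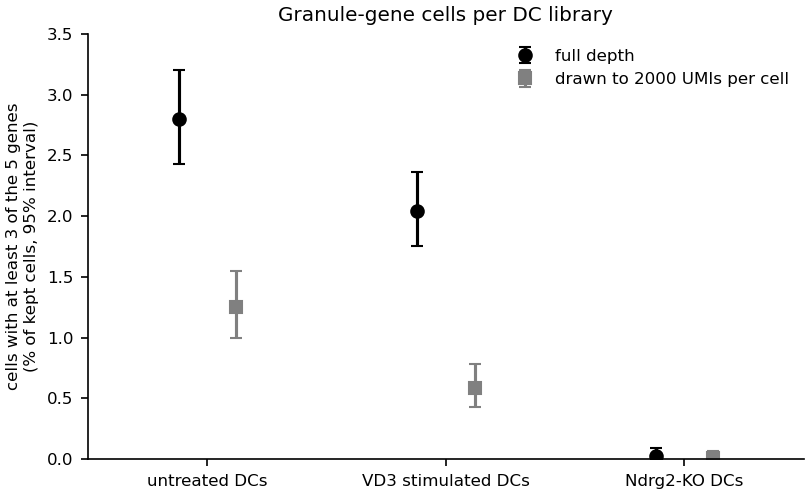
Share of kept cells with at least 3 of the 5 granule genes (y axis, percent) in each DC library, at full depth (black circles) and after every cell was drawn to 2000 UMIs (grey squares), with exact 95% binomial intervals. The untreated culture is highest at both depths, the VD3 culture is lower and the Ndrg2-KO culture is close to 0.

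Granule-gene cells made up 2.8% (exact binomial interval 2.43 to 3.2) of the untreated culture, 2.04% (1.75 to 2.36) of the VD3 culture and 0.0251% (0.00304 to 0.0906) of the Ndrg2-KO culture. The plot of shares by library shows the 3 intervals apart from one another. When every cell was drawn to 2000 UMIs before the rule was applied, 85 of 6785 untreated cells (1.25%, 1 to 1.55), 45 of 7676 VD3 cells (0.586%, 0.428 to 0.784) and 1 of 7835 Ndrg2-KO cells (0.0128%, 0.000323 to 0.0711) met it. This left out 472, 1149 and 134 shallower cells. The order of the 3 cultures was the same at both depths. Ms4a3, a gene of the rule, was itself lower after VD3. With Ms4a3 left out of the rule, 129 of 7257 untreated (1.78%) and 119 of 8825 VD3 cells (1.35%) held 3 of the remaining genes. These shares lie closer together, and no interval was computed for them. No granule-gene cell was found in the wound libraries among 1948, 5681 and 3403 kept cells; counts of 0 allow shares of up to 0.154%, 0.0528% and 0.0882%, taken as 3 cells of the total, or 0.189%, 0.0649% and 0.108% as exact binomial upper bounds.

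The rule cut through a continuous range of cells. In the untreated culture 191 cells held 2 of the 5 genes, 74 held 3, 60 held 4 and 69 held all 5. The VD3 culture had 136, 87, 50 and 43 such cells. In the Ndrg2-KO culture 9 cells held 2 genes, none held 3 and the 2 members held 4. Of those 9 cells, 6 held Prtn3 with Ms4a3 and 3 held Elane with Prtn3. The sum of the 5 genes had a median of 7 UMIs (2 to 95) in untreated cells with 2 genes and 18.5 UMIs (3 to 128) in those with 3, and of 5 (2 to 74) and 15 (3 to 74) after VD3.

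Cells with mature DC genes were used to look at the background from free RNA; those that met the rule are themselves granule-gene cells. Among untreated cells that held at least 3 of 8 mature DC genes, drawn to 2000 UMIs, 0.161% held Elane, 0.613% Prtn3, 0.258% Ctsg, 0.0645% Mpo and 0.516% Ms4a3, and 0.194% met the rule, against 2.14% of the remaining cells. After VD3 the shares that met the rule were 0.0503% and 1.16%. At full depth, where the mature cells were deeper (median 18016 against 6919 UMIs when untreated, and 14831 against 3191 after VD3), they were 2.07% against 4.19% and 1.61% against 2.66%.

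The values that chose the cells are given here as a description. Elastase RNA amounted to 645 CPM (625 to 666) in untreated granule-gene cells, with a lowest, median and highest value per cell of 0, 120.0 and 9313 CPM. In VD3 granule-gene cells it was 321 CPM (304 to 339), with 0, 186 and 2531 CPM per cell. All VD3 cells lay within the range of the untreated cells. Prtn3 was at 1747 CPM (1714 to 1780) and 889 CPM (861 to 919) in untreated and VD3 cells, with similar medians per cell of 576 and 589 CPM. Ctsg was at 619 (599 to 639) and 349.8 CPM (332 to 368), and Mpo, held by 81 of 203 and 76 of 180 cells, at 149 (139.7 to 159) and 87 CPM (78.2 to 96.6). The pooled levels of all 4 were thus lower after VD3. The median per cell went from 89.1 to 59.2 CPM for Ctsg and was 0 in both cultures for Mpo.

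Ms4a3 was found in all 203 untreated and in 149 of 180 VD3 granule-gene cells. It was at 1005 CPM (980.0 to 1030) and 270.1 CPM (254 to 287), with medians per cell of 759.9 and 119 CPM. Its log2 ratio, VD3 over untreated, was -1.90, against -0.78 to -1.01 for the other 4 genes. Outside the granule-gene cells Ms4a3 fell from 18.7 to 3.44 CPM. Of the cells that held Ms4a3 and none of the other 4 genes, 427 were found in the untreated, 94 in the VD3 and 8 in the Ndrg2-KO culture.

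**Figure D2:**
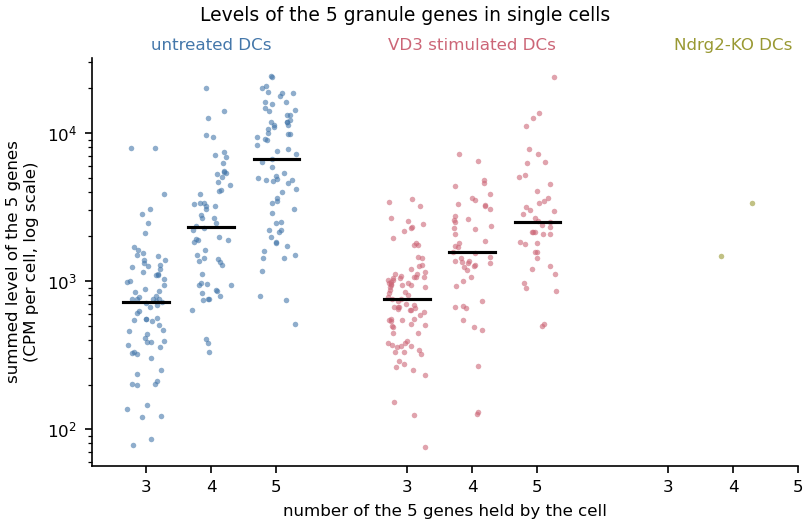
Summed level of Elane, Prtn3, Ctsg, Mpo and Ms4a3 in each granule-gene cell (y axis, CPM on a log scale) by the number of these genes it held (x axis), for the 3 DC libraries. Points are cells and black bars are medians; the untreated cells with all 5 genes reach the highest levels, and the 2 Ndrg2-KO cells lie within the range of the other cultures.

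Prtn3 was also found outside the granule-gene cells. It was held by 326 of the other untreated cells (4.62%), 498 of the other VD3 cells (5.76%) and 439 of the other Ndrg2-KO cells (5.51%). Among all other cells of the Ndrg2-KO culture, 10 held Elane and none held Ctsg or Mpo, whereas 39 of the other untreated cells held Elane, 35 Ctsg and 15 Mpo. Per UMI of Elane, granule-gene cells held 2.71 UMIs of Prtn3 when untreated and 2.77 after VD3. The other cells held 15.3 and 11.1, and the other cells of the Ndrg2-KO culture 71.6. The 2 Ndrg2-KO granule-gene cells held 12.2. Both genes belong to the rule, so a cell with Prtn3 and little else falls outside the granule-gene cells by construction. Of the Ndrg2-KO cells that held Prtn3 alone, 303 of 430 had 1 UMI of it.

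The cells were then compared with the rest of their culture on genes that the rule did not use. In the untreated culture 1097 of 11437 genes (9.59%) were at least 2-fold higher in granule-gene cells and 1790 (15.7%) at least 2-fold lower, with counting intervals that excluded no difference. After VD3 this was true of 913 of 11285 genes (8.09%) and 1570 (13.9%). The sets of cells were defined by their expression, so these counts describe them and are no test.

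Some genes of granule formation and of progenitors were higher in granule-gene cells than in the rest, and others were not. Plac8, a gene of myeloid progenitors and monocytes, was at 869 CPM against 10.4 CPM in other untreated cells, 83.9-fold higher, and at 305 against 7.14 CPM after VD3. The serine protease gene Prss57 was at 51 against 0.435 CPM and 21.3 against 0.703 CPM. Myb, a transcription factor of dividing progenitors, was at 48.5 against 1.96 CPM when untreated and 14.7 against 1.41 CPM after VD3. Cebpe, the factor for late granule genes, was at 106 against 11.7 CPM and 124 against 13.5 CPM. Of 9 transcription factors of these lineages counted, however, 2 were at least 2-fold higher than in other cells in each culture. These were Cebpe and Cebpd when untreated and Cebpe and Cebpb after VD3. At least 2-fold lower were 2 when untreated and 3 after VD3. Irf8, a factor of monocytes and DCs, was among the lower ones, at 58 against 136 CPM when untreated. Of 10 genes for granule packing and early granules counted, 6 were at least 2-fold higher than in other untreated cells, Lyz2 was lower and Ctsc, Srgn and Cd63 passed in neither direction. After VD3, 5 of 9 were higher and none was lower.

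Granule-gene cells were dividing cells by their transcripts. All 12 G2/M genes counted were at least 2-fold higher than in other cells in both cultures, and 10 of 12 S phase genes. At least 3 of 6 proliferation genes (Stmn1, Mki67, Top2a, Birc5, Pclaf and Ube2c) were held by 200 of 203 untreated and 160 of 180 VD3 granule-gene cells, against 27.6% and 22.1% of the other cells. At 2000 UMIs per cell these shares were 53.2% (46.1 to 60.3) and 54.4% (46.9 to 61.9), against 15.7% and 12.6%. The shares of granule-gene cells overlapped at that depth. At 10000 UMIs they were 93.9% (89.7 to 96.8) and 86.3% (80.3 to 91), and at full depth 98.5% (95.7 to 99.7) and 88.9% (83.4 to 93.1), lower after VD3 with intervals that do not overlap at full depth. In the Ndrg2-KO culture 20.3% of the other cells held 3 of these genes at full depth and 8.99% at 2000 UMIs.

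Neutrophil genes of later stages were found in the same cells. The alarmin subunits S100a8 and S100a9 were at 20761 and 17375 CPM in untreated granule-gene cells, against 2189 and 1291 CPM in the other cells. They were at 33306 and 26132 CPM after VD3, against 2478 and 1471 CPM. At least 3 of 7 neutrophil genes were held by 49 of 203 untreated (24.1%, 18.4 to 30.6) and 78 of 180 VD3 granule-gene cells (43.3%, 36 to 50.9). At 2000 UMIs per cell the shares were 8.46% (5 to 13.2) and 12.2% (7.82 to 17.9), with overlapping intervals, and at 10000 UMIs 17.7% (12.6 to 23.7) and 33.1% (26.2 to 40.6), which did not overlap. Granule-gene cells were 15.5% of all untreated and 20.7% of all VD3 cells that held 3 neutrophil genes.

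The markers only partly bore out the name of granulocyte-monocyte progenitors. Of 10 monocyte genes counted, 3 were at least 2-fold higher and 4 lower than in other untreated cells. After VD3, 1 of 8 was higher and 4 were lower. Kit, the stem cell factor receptor of early progenitors, was held by 21 of 203 untreated granule-gene cells at 5.08 CPM, and Cd34 by 38 cells at 9.83 CPM, against 1.74 and 11 CPM in the other cells. Flt3 was held by 3 cells at 0.819 CPM and Erg by none. After VD3, Kit was held by 33 of 180 cells, Cd34 by 15, Flt3 by 1 and Erg by 1. Kit was thus 2.92-fold above the other cells when untreated, while after VD3 it was at 12.5 CPM against 31.3 CPM in the others. Hoxa9, a transcription factor of early progenitors, was at 10.7 against 0.546 CPM when untreated, in 41 of 203 cells, and at 6.36 against 0.418 CPM after VD3, in 24 of 180. Gata2, a factor of early progenitors and of basophils, was at 18.8 against 2.1 CPM and 13.2 against 1.79 CPM, but in only 13 untreated and 17 VD3 granule-gene cells, and 1 cell held 27.8% of its untreated UMIs. Of 8 progenitor genes counted, 3 were at least 2-fold higher and 2 lower than in other untreated cells, among the latter Sox4 at 13.8 against 42.2 CPM, and after VD3 2 were higher and 1 lower. Hoxa9 and Erg had under 100 UMIs in each set of cells and are not in these counts. At least 3 of the 10 progenitor genes were held by 74 of 203 untreated (36.5%) and 45 of 180 VD3 granule-gene cells (25%), against 6.51% and 7.29% of the other cells. At 10000 UMIs these shares were 14.6% and 10.3%, against 1.82% and 3.67%, and at 2000 UMIs 2 untreated cells and 1 VD3 cell still held 3. Because some of these genes were high and others near 0, the cells are called by their granule genes.

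Genes of other lineages differed in how many cells held them. All 6 lymphoid genes were at 0 UMIs in the granule-gene cells of both cultures. The 9 antigen presentation genes summed to 2054 CPM in untreated and 1321 CPM in VD3 granule-gene cells, against 11249 and 9149 CPM in other cells, and all 9 were at least 2-fold lower when untreated. At least 3 of them were held by 132 of 203 untreated (65%) and 91 of 180 VD3 granule-gene cells (50.6%) at full depth, and by 15.4% and 8.89% at 2000 UMIs. All 8 mature DC genes were at least 2-fold lower in both cultures, with sums of 976 against 6558 CPM and 1346 against 6377 CPM. Nevertheless 99 of 203 and 84 of 180 granule-gene cells held 3 or more mature DC genes at full depth, and 9.95% and 11.7% at 2000 UMIs. Macrophage genes summed to 172 CPM in untreated and to 148 CPM in VD3 granule-gene cells, against 805 and 1166 CPM in the others, and erythroid and megakaryocyte genes to 149.9 and 46.4 CPM, against 615 and 321 CPM. Of 4 globin genes, Hba-a1, Hba-a2 and Hbb-bs were at 0 UMIs in both, and Hbb-bt had 16 UMIs in 8 untreated and 7 UMIs in 2 VD3 granule-gene cells. The part of free RNA and of doublets in these was not tested.

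A few cells carried the genes of basophils and eosinophils. At least 3 of 7 basophil genes, among them the proteases Prss34, Mcpt8 and Cpa3 and the IgE receptor chains Fcer1a and Ms4a2, were held by 10 untreated and 11 VD3 granule-gene cells. These cells were 34.5% and 27.5% of all cells with 3 basophil genes in their cultures. No cell of the Ndrg2-KO culture held 3 of them, which allows a share of up to 0.0376% (3 cells of the total). Prg2, Prg3 and Epx, the major eosinophil granule genes, ranked first for both cultures among genes that were higher in granule-gene cells than in the rest, apart from 3 stromal genes. However, Prg2 came from 7 cells in each culture, and 5 cells held 99.9% and 99.3% of its UMIs.

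One untreated granule-gene cell stood apart. It held all 353 UMIs of the stromal genes Col1a2, Dcn and Sparc, 542 of the 559 UMIs of Timp1 and 8 UMIs of the rule genes, 3 of which it held. Col1a2, Dcn, Sparc and Timp1 therefore rest on this cell, and their differences from other cells or from the VD3 culture are values of 1 cell.

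**Figure D3:**
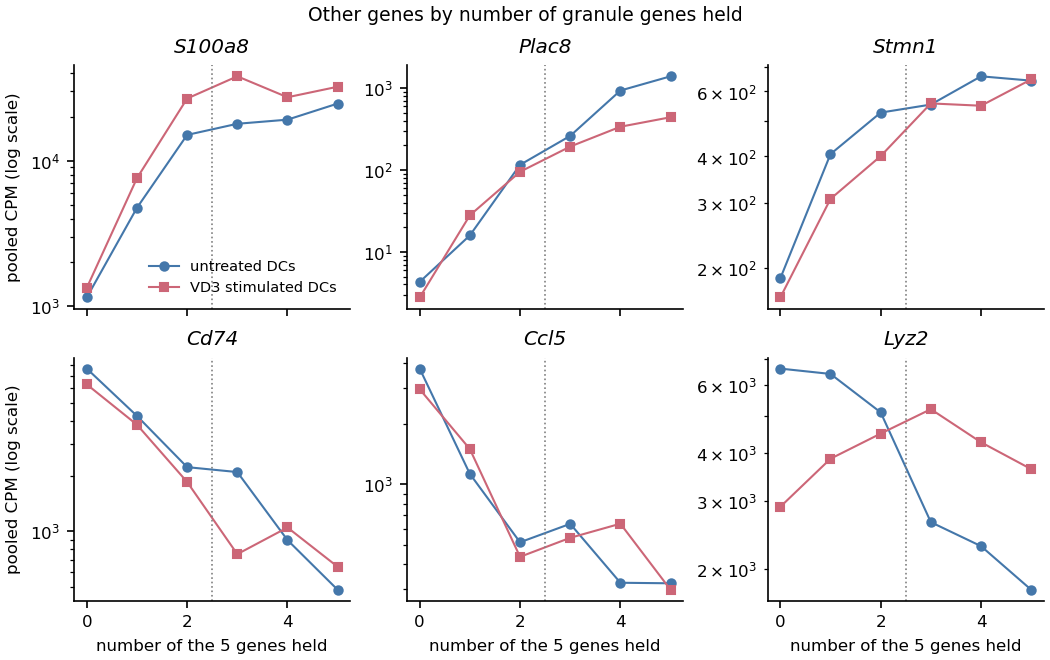
Pooled level (y axis, CPM on a log scale) of 6 genes in untreated (circles) and VD3 stimulated (squares) cells grouped by how many of the 5 granule genes they held (x axis); the dotted line marks the rule. In both cultures S100a8, Plac8 and Stmn1 are higher and Cd74 and Ccl5 lower in cells with 3 or more granule genes than in cells with none, but not every step goes the same way, while Lyz2 in such cells is below that of cells with none in the untreated and above it in the VD3 culture.

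Levels of other genes differed by steps with the number of granule genes held. In untreated cells with 0, 1, 2, 3, 4 and 5 of the genes, Plac8 was at 4.29, 15.9, 116, 262, 939 and 1402 CPM. S100a8 was at 1146, 4745, 15070, 17979, 19190 and 24767 CPM. Cd74, the invariant chain of MHC class II, was at 7693, 4250, 2236, 2102, 896 and 480.4 CPM. After VD3, Plac8 was at 2.77, 28, 95.4, 194, 339 and 443 CPM. S100a8 was highest with 3 genes there, at 38149 CPM, and stood at 27374 and 32339 CPM with 4 and 5. Cd74 was at 751, 1049 and 641 CPM in VD3 cells with 3, 4 and 5 genes, against 6311 CPM with none. Deeper cells hold more genes, and the median depth went from 14758 to 28738 UMIs along the same steps.

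The VD3 comparison was of transcripts in granule-gene cells of the VD3 and the untreated culture. The hormone binds the nuclear receptor VDR and was used in the study to make DCs tolerogenic. The rule genes themselves differed between these cultures. A change within cells and a shift in which cells met the rule therefore cannot be told apart. Of 6060 genes with at least 100 UMIs in either sum, 192 (3.17%) were at least 2-fold higher and 361 (5.96%) at least 2-fold lower in VD3 than in untreated granule-gene cells, with intervals that excluded no difference. Across the 6060 genes the log2 ratios had a median of -0.16. With the median set to 0, 259 genes were higher and 239 lower, so that the share of higher among the called genes was 52% in place of 34.7%. In the other cells of the same libraries, 105 of 6050 genes (1.74%) were higher and 249 (4.12%) lower. Of the 192 higher genes of granule-gene cells 74 were also higher in other cells, which was 38.5% of the former and 70.5% of the latter. Of the 361 lower genes 131 were also lower, 36.3% and 52.6%.

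Cyp24a1, the enzyme that breaks down active vitamin D and a direct target of VDR, had the largest ratio. It was at 0 UMIs in all 203 untreated granule-gene cells and at 3939 UMIs in 150 of 180 VD3 cells, 963 CPM (933 to 993). The log2 ratio was 10.94 with the untreated count set to 3 UMIs, and its exact 95% interval began at 10.64. The median VD3 cell had 923 CPM and the highest 2746 CPM. In the other cells the level was 0.00791 CPM untreated and 291 CPM after VD3, so granule-gene cells were 3.31-fold above the rest of the VD3 culture. Vdr, the receptor, was at 17.5 CPM (14.4 to 21.2) and 64.3 CPM (56.8 to 72.6), 3.67-fold higher after VD3. It was lower than in other cells of either culture, where it was at 52.7 and 137 CPM. Of the 10 vitamin D genes fixed for this comparison 4 were counted, of which 3, Cyp24a1, Vdr and Cd14, were higher and none was lower.

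Genes outside the vitamin D list rose as well. Gdf15, a secreted factor of stressed cells, was at 3.61 CPM without VD3 and 210.0 CPM with it, held by 11 of 203 and 103 of 180 cells. Dapk2, a death-associated protein kinase, was at 1.64 and 56.5 CPM, a log2 ratio of 5.11 (4.20 to 6.19) against 2.70 in other cells. Smox, spermine oxidase, was at 3.44 and 97.5 CPM, and Acpp, an acid phosphatase, at 12.8 and 283 CPM and in 161 of 180 VD3 cells. Their log2 ratios were 4.82 and 4.47, against 2.34 and 1.81 in other cells. Asb2, Lifr, Ccl4, Rgl1 and Ifitm6 completed the 10 largest rises, with log2 ratios of 6.86, 5.05, 4.51, 4.46 and 4.23. All of these rose in other cells too. The size of the rise was not tested between granule-gene cells and other cells, since each was 1 library a condition.

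**Figure D4:**
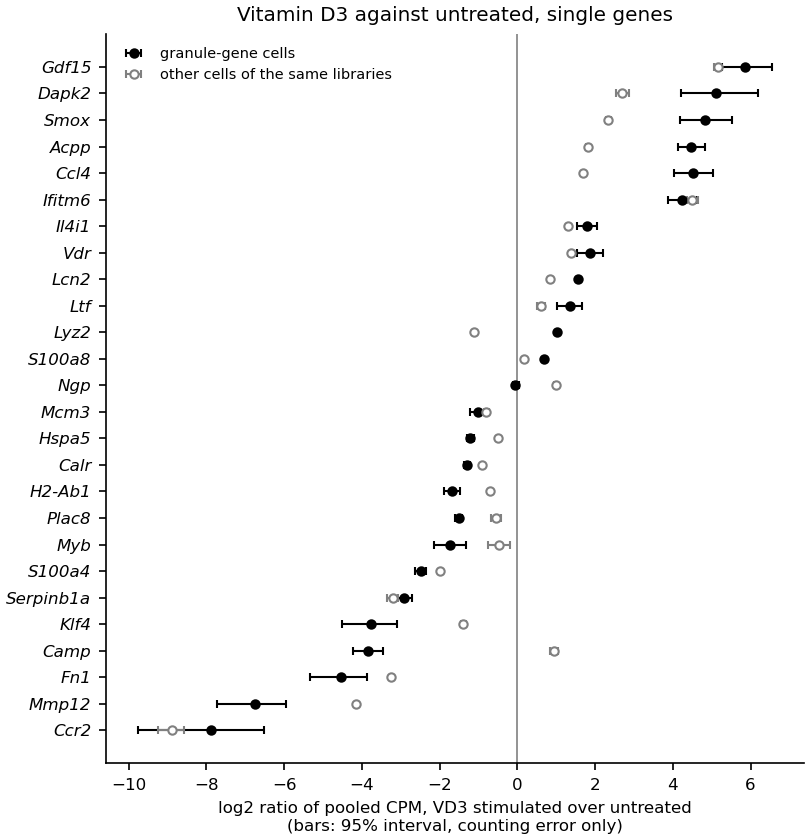
Log2 ratio of pooled CPM, VD3 stimulated over untreated (x axis), for genes named in the text or of the fixed lists, in granule-gene cells (filled) and in other cells of the same libraries (open), with 95% intervals for counting error. Ccr2 and Mmp12 lie far to the left in both, and Lyz2 lies on opposite sides of 0.

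Ccr2, the chemokine receptor by which monocytes leave the marrow, had the largest fall. It was at 232 CPM (219.9 to 244) in untreated granule-gene cells, held by 133 of 203, and at 0.978 CPM (0.266 to 2.5) in VD3 cells, held by 2 of 180. The log2 ratio was -7.89 (-9.77 to -6.53), beside -8.89 in other cells. The macrophage elastase Mmp12 was at 318 CPM (304 to 333) and 2.93 CPM (1.52 to 5.12). Vcam1, Plet1, Cxcl3 and Mrc1 had log2 ratios of -6.18, -5.50, -5.03 and -4.73. Of the 10 largest falls, Timp1, Col1a2 and Dcn rested on the stromal cell described above, and 1 cell held 41.7% of the UMIs of Vcam1 and 1 cell 40.2% of those of Cxcl3 in untreated granule-gene cells.

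Most monocyte genes had lower values after VD3. Of 8 counted, 4 were at least 2-fold lower and none was higher, with a median log2 ratio of -1.24, or -1.08 relative to the median of all genes. The median was -2.62 with the rule at 2000 UMIs, -2.48 without cells that held 3 mature DC genes and -2.29 with under 5% mitochondrial UMIs. Fn1 was at 97.7 and 4.16 CPM. Ly6c2, a surface marker of inflammatory monocytes and their precursors, was at 1193 CPM (1166 to 1221) and 598 CPM (575 to 623), 1.99-fold lower and just short of the 2-fold threshold. The same list had a median of -1.30 in other cells. At least 3 of 7 monocyte call genes were held by 146 of 203 untreated and 87 of 180 VD3 granule-gene cells, and without Ccr2 by 127 and 87. Of the other cells 36.6% untreated and 17.4% after VD3 held 3 of them, and without Ccr2 28.7% and 17.3%. At 2000 UMIs the shares of granule-gene cells without Ccr2 were 5.47% (2.76 to 9.58) and 2.78% (0.908 to 6.36), whose intervals overlap. At 10000 UMIs they were 43.4% (36.4 to 50.6) and 21.7% (15.8 to 28.6), which do not.

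Secondary granule genes went the other way, but unevenly. Of 8 counted, Lcn2 and Ltf were at least 2-fold higher and Camp was at least 2-fold lower, and the median log2 ratio was 0.64. This median stayed above 0 but ranged over the alternatives from 0.15, without Ms4a3 in the rule, to 0.86, with under 5% mitochondrial UMIs. It was 0.24 with the rule at 2000 UMIs and 0.31 with 4 of the 5 rule genes required. Lipocalin 2 (Lcn2) was at 779 CPM (757 to 802) and 2306 CPM (2260 to 2353), held by 161 granule-gene cells in each culture, with medians per cell of 243 and 1176 CPM. Lactoferrin (Ltf) was at 22.5 CPM (18.8 to 26.5) and 57 CPM (49.9 to 64.8), in 24 of 203 and 58 of 180 cells. S100a8 and S100a9 had log2 ratios of 0.68 and 0.59, under 2-fold, and Ngp one of -0.05.

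Camp, the cathelicidin of secondary granules, was at 203 CPM (191 to 214) untreated and 14.2 CPM (10.8 to 18.3) after VD3, a log2 ratio of -3.84, while that of other cells was 0.93. It was held by 33 of 203 and 19 of 180 granule-gene cells. The highest cell had 35.6% and the highest 5 cells 89.5% of its untreated UMIs. When 2 of the 5 rule genes made a member, the log2 ratio was 0.04. The value of Camp thus rests on few cells and on where the rule is set.

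Among early granule and progenitor genes other than the rule genes, more were lower than higher after VD3. Of 10 granule packing and early granule genes, 6 passed 2-fold in neither direction. Ctsc, which activates the granule proteases, Serpinb1a, which inhibits them, and Plac8 were at least 2-fold lower, and Lyz2 was higher. Serpinb1a was at 341 CPM (327 to 356) in 182 of 203 cells and at 45.2 CPM (38.9 to 52.2) in 69 of 180 cells, a log2 ratio of -2.92 beside -3.21 in other cells. Plac8 was at 869 CPM (846 to 893) and 305 CPM (288 to 322), beside a log2 ratio of -0.54 in other cells against -1.51 here. Of the 4 progenitor genes counted, Myb and Cdk6 were lower, at log2 ratios of -1.73 and -1.34, and Sox4 was higher at 1.47.

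Lysozyme (Lyz2) was the only gene outside the rule called in opposite directions in the 2 sets of cells. It was at 2227 CPM (2190 to 2265) in untreated and 4491 CPM (4427 to 4557) in VD3 granule-gene cells, with medians per cell of 1096 and 3348 CPM. Other cells had 6532 CPM untreated and 3018 CPM after VD3. Granule-gene cells were thus below their culture when untreated and above it after VD3.

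Of 9 transcription factors of the granulocyte and monocyte lineages counted, 7 passed 2-fold in neither direction, among them Spi1 (402 and 463 CPM), Cebpb (786 and 798 CPM), Cebpe (106 and 124 CPM) and Runx1 (89 and 88.2 CPM). Cebpa fell from 37 to 16.1 CPM and Klf4, a factor of monocyte formation, from 62.9 to 4.64 CPM. Gfi1, a factor of neutrophil formation, had 82 UMIs in untreated and 14 in VD3 granule-gene cells, under the minimum of 100 UMIs. Of 9 receptors counted, Ifngr1 was higher at a log2 ratio of 1.15 and Ccr2 lower, and the GM-CSF receptor chains Csf2ra and Csf2rb had ratios of -0.23 and 0.48.

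**Figure D5:**
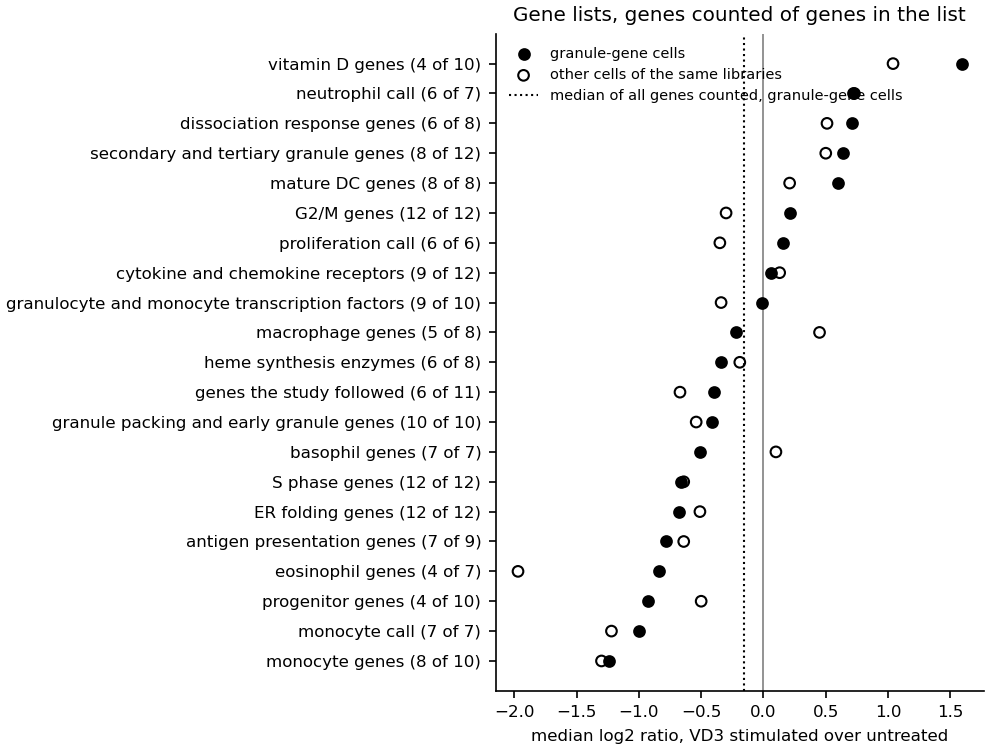
Median log2 ratio, VD3 stimulated over untreated (x axis), of each gene list with 3 or more genes counted, in granule-gene cells (filled) and in other cells of the same libraries (open); the dotted line is the median of all genes counted in granule-gene cells, -0.16. In granule-gene cells the vitamin D genes lie highest (1.59), followed by the neutrophil genes (0.72), the dissociation genes (0.71) and the secondary granule genes (0.64). Monocyte genes lie lowest (-1.24). The neutrophil median was -0.47 with the rule applied at 2000 UMIs and 0.09 with Ms4a3 left out of the rule. The secondary granule median was 0.24 and 0.15 under these settings.

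Cell cycle genes split by phase. All 12 S phase genes had log2 ratios below 0, with a median of -0.66 (-0.50 relative to all genes), and Mcm3 and Ung passed 2-fold. Mcm3, a helicase subunit that opens DNA for replication, was at 141 CPM when untreated and 69.9 CPM after VD3. All 12 G2/M genes were above 0, with a median of 0.21, and none passed 2-fold. When 2 of the 5 rule genes made a member, 6 of the 12 were above 0 and 6 below, with a median of -0.01, and with under 5% mitochondrial UMIs 7 were above 0. Cenpf, the farthest of them, was at 98.2 and 175 CPM. In other cells the S phase median was -0.64 and the G2/M median -0.30.

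Protein folding genes of the endoplasmic reticulum had log2 ratios below 0 in both sets of cells, all 12 of them, with a median of -0.68 in granule-gene cells and -0.51 in other cells, and 3 passed 2-fold in granule-gene cells. The chaperone Hspa5 was at 571 CPM (553 to 591) and 247 CPM (232 to 263), Calr at 959.8 (935 to 985) and 392 CPM (373 to 412), and Manf at 429 and 214 CPM. Of the 6 heme synthesis enzymes counted, which serve myeloperoxidase among others, only Cpox passed, at 19 and 9.29 CPM, and the median was -0.34.

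Part of the MHC class II genes were lower after VD3. H2-Ab1 was at 194 and 60.6 CPM in granule-gene cells, held by 86 of 203 and 61 of 180. Of 7 antigen presentation genes counted 3 were at least 2-fold lower, H2-Ab1, H2-DMb1 and Itgax, and none was higher. When 4 of the 5 rule genes made a member, the median of this list went from -0.78 to 0.09; it was -1.75 with the rule at 2000 UMIs and -2.47 with under 5% mitochondrial UMIs. Of 8 mature DC genes, Ccr7, Il4i1 and Socs2 were higher, but the log2 ratio of Ccr7 went from 1.05 to -0.19 with the rule at 2000 UMIs. The median of that list, 0.60, ranged over the alternatives from -1.50, with under 5% mitochondrial UMIs and 4 genes still counted, to 1.37 with 4 of the 5 rule genes required. Fos and Junb, which respond to the handling of cells, were at least 2-fold higher after VD3, at log2 ratios of 1.26 and 1.36, and none of the 6 dissociation genes counted was lower; their part in the other differences was not tested. Among macrophage genes Mrc1 alone of 5 counted passed, and among erythroid and megakaryocyte genes Pf4 was lower and Car2 passed in neither direction, the 2 that were counted. Among the genes that the study followed, S100a4 and S100a6 had log2 ratios of -2.49 and -1.26 and Mmp12 of -6.76, and Vegfa was at 13.4 and 16.1 CPM.

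Basophil and eosinophil genes rested on few cells in this comparison too. Of 7 basophil genes 2 were at least 2-fold lower, Fcer1a at 41.6 and 9.29 CPM and Ms4a2 at 36.9 and 18.3 CPM, and the list median of -0.51 became 0.01 when every cell had the same weight. Epx was at 102 and 32 CPM in 5 and 4 cells, and Prg2 at 489.8 and 488 CPM. Without the cells of highest doublet scores their log2 ratios became 4.96 and 5.77.

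Only 2 granule-gene cells were left in the Ndrg2-KO culture, and they are described singly. The first had 18183 UMIs, of which 38 were Prtn3, 14 Ms4a3, 7 Ctsg, 2 Elane and none Mpo. It held 2438 UMIs of S100a9, 1552 of S100a8, 652 of Ngp and 436 of Camp, and none of Cd74 or H2-Ab1. The second had 30579 UMIs, with 35 of Prtn3, 4 of Elane, 3 of Ctsg, 3 of Ms4a3 and none of Mpo. It held 1358 UMIs of S100a9, 464 of Ngp and 168 of Camp, and also 273 of Ccl5, 127 of Mmp12 and 72 of Fn1.

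Both Ndrg2-KO cells held at least 3 neutrophil genes and at least 3 proliferation genes. In that culture 39 cells held 3 neutrophil genes (0.489%), against 316 in the untreated (4.35%) and 376 in the VD3 (4.26%) culture, so cells with later neutrophil genes were fewer there as well. Cells with 3 mature DC genes made up 80.9% of the Ndrg2-KO, 65.8% of the untreated and 59.2% of the VD3 culture at full depth, but at 2000 UMIs the order was the opposite, with 34.1%, 45.7% and 51.8%. With 1 culture of each kind, the part of culture conditions in these shares was not tested.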

How the data were processed

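Single-cell 3′ RNA libraries (10x Genomics) of 3 DC cultures and 3 wounds, 1 per condition, were used. The deposited values are raw UMI counts per gene and cell that the authors made with Cell Ranger (3.1.0 in the headers of the DC matrices, 6.0.0 in those of the wound matrices), aligned to mm9 per the submitters' notes and to mm10 per the study's methods. Coordinates were looked up by Ensembl ID in GENCODE vM21 (GRCm38), not taken from the files. Total counts per DC library were 124731240 to 162369979 UMIs. Hashtag features held 0 UMIs.

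The filter on cells was 300 or more genes, fewer than 100000 UMIs and less than 10% mitochondrial UMIs. Counts were summed over member cells and over other cells of each library and scaled to CPM with Python 3.11.15, numpy 2.4.6 and scipy 1.17.1. Ratios carry exact conditional binomial intervals, shares exact Clopper-Pearson intervals and levels exact Poisson intervals; a count of 0 was set to 3 UMIs. A gene was called at 2-fold or more with an interval that excluded no difference, where either sum reached 100 UMIs. The calculation was tested on simulated counts drawn from the same counting model around pooled sums, with no variation between cells. The test therefore says nothing of genes whose UMIs lie in few cells. Genes were named if they were rule genes, members of 24 lists, the 10 largest rises or falls (no mitochondrial or ribosomal protein genes), or the 10 highest ratios over other cells; 1 of the falls is not reported here. Scrublet (scanpy 1.11.5) marked 0 or 1 cell per library as doublets, so no cell was removed, and leaving out the highest 6% of scores was an alternative. So few marks are no measure of how many doublets there were. The highest 6% took in 20 of 203 untreated (9.85%) and 13 of 180 VD3 granule-gene cells (7.22%). Median scores of granule-gene cells were 0.0528 untreated and 0.0656 after VD3, against 0.0435 and 0.051 in other cells. Members and lists were chosen with earlier results of these data known.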

Additional observations from a re-analysis of the deposited data

Results flagged for a closer look

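Lyz2 had opposite calls in the 2 sets of cells. Its log2 ratio, VD3 over untreated, was 1.01 (0.98 to 1.04) in granule-gene cells and -1.11 in other cells of the same libraries. With 1 library per condition the difference between them was not tested.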

How the results depend on the processing

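The untreated, VD3 and Ndrg2-KO shares were 5.43%, 3.58% and 0.138% with 2 of 5 genes required. They were 1.78% and 1.05% (untreated and VD3) with 4 of 5, 1.25% and 0.586% at 2000 UMIs, 3.84% and 1.52% with under 5% mitochondrial UMIs, and 1.78% and 1.35% without Ms4a3 in the rule (an alternative chosen after seeing the data). In each of these the untreated share was above the VD3 share. The counts of higher and lower genes were 65 and 164 with the rule at 2000 UMIs, 79 and 212 under 5% mitochondrial UMIs, 120 and 196 without cells that held 3 mature DC genes, 126 and 219 at a minimum of 200 UMIs, and 558 and 868 with no minimum; 239 were lower with median-ratio scaling. These settings change the number of cells or genes counted or, for the last, the centre.

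Of 1916 gene ratios under alternatives, 1771 kept their call and 12 reversed. Reversed genes were Camp (0.04 with 2 of 5 genes), C1qb (1.53 with 4 of 5; 1.32 without Ms4a3), Cpa3, Ccr7 and Prss34 (-2.78, -0.19 and -6.37 with the rule at 2000 UMIs), Prg2, Ccl5 and Ms4a2 (1.15, -3.49 and 0.09 under 5% mitochondrial UMIs), Prg2 and Epx (5.77 and 4.96 without the highest doublet scores) and Prg3 (-1.25 without Ms4a3). Reversed list medians were antigen presentation (0.09 with 4 of 5; 0.24 without Ms4a3), neutrophil and mature DC genes (-0.47 and -0.19 with the rule at 2000 UMIs), mature DC, basophil and eosinophil genes (-1.50, 0.54 and 0.04 under 5% mitochondrial UMIs), eosinophil genes (5.36 without the highest doublet scores) and basophil genes (0.01 with cells weighted equally). A further 26 of 266 list medians under alternatives moved by more than 0.5 without counting as reversed, among them those of monocyte, antigen presentation, mature DC, basophil and eosinophil genes. A median counted as reversed only if it was at least 0.5 from 0. Of the 8 lists nearer to 0, 6 also changed sign, 9 times in all: macrophage genes (from -0.22 to 0.36 with 2 of 5 and 0.07 with all barcodes), proliferation and G2/M genes (-0.15 and -0.01 with 2 of 5), early granule genes and receptors (0.07 and -0.04 under 5% mitochondrial UMIs) and transcription factors (at most 0.15, under 3 settings). The cause was not tested. Counting intervals do not hold variation between cultures, and those of levels and ratios do not hold variation between cells. No paired analysis was possible because each condition was 1 library.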
